A study of Mus musculus with 6 samples.

Results

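Tead4, a DNA-binding transcription factor, was over-expressed in murine mesenchymal stem cells that carry intact Dicer, and every gene was compared between these cells and cells that received an empty vector. Genes entered the comparison when the mean of the vector and Tead4 levels was at least 50 normalised reads, which held for 9796 of 23227 genes in exonic reads and for 8582 of 23231 in intronic reads. The difference is log2((Tead4 + 1)/(vector + 1)). Its size or direction was no criterion, but a gene under 50 in 1 group entered only through the other. For such genes a difference in that direction was a condition of entry. The cells were immortalized monoclonal lines, so each genotype stands for the clones used, and the labels also call them fibroblasts. The vector, Tead4, Pbx3 and Sox9 groups all derive from the Dicer f/f wild type, written Dicer WT below. By their labels the transfected groups differ in the plasmid: an empty vector or one holding transcripts of Tead4, Pbx3 or Sox9. Whether they also differed in handling was not tested. The 2 remaining groups are untreated Dicer WT and Dicer -/- (Dicer KO) cells. Total RNA was depleted of ribosomal RNA and sequenced as strand-specific single-end reads.

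The labels give 1 sample for each of 6 groups, but the deposited values hold the reads of 2 libraries per group, numbered 1 and 2 here for the larger and smaller scaling factor. Nothing states that the 2 libraries came from separate cultures, so every p-value below measures the spread between these libraries, which may be technical. The vector libraries held 11011360 and 8580445 exonic reads and the Tead4 libraries 10877587 and 8669890. Intronic reads made up 28.5% and 29.8% of the vector libraries and 30.2% and 28.7% of the Tead4 libraries. The 2 libraries of a group differed from each other along shared genes: across 8777 genes the exonic difference of library 1 and library 2 in vector cells correlated with that in Tead4 cells at r = -0.534, a description across genes that share a library. Of 21 stromal markers, 18 reached the minimum level, while Thy1, a mesenchymal stem cell marker, was at 0 in all 4 libraries. All 21 summed to 69992 and 68395 in vector and 85567 and 79797 in Tead4 libraries. The highest of them, Vim, was at 30750 and 28940 in vector and 45420 and 39900 in Tead4 libraries. No marker of epithelial (9), endothelial (7), blood (9) or neural cells (7) reached the minimum in exonic reads. Their sums were 2.2 to 82.6 normalised reads per library, with the highest of these in Tead4 library 1, mostly from Tubb3 (62.8).

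TEAD proteins bind DNA but activate transcription only with a cofactor, above all YAP or TAZ (the products of Yap1 and Wwtr1). The Hippo kinases LATS1 and LATS2 phosphorylate YAP and TAZ and keep them out of the nucleus, and Vestigial-like (VGLL) proteins compete for TEAD. TEAD with YAP or TAZ is best known for driving growth, matrix and cytoskeletal genes such as Ctgf, Cyr61 and Ankrd1, and in mesenchymal stem cells for shifting the balance between bone-forming and fat-storing fates.

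Tead4 was at 38.9 and 40.7 normalised exonic reads in the vector libraries and 6866 and 5050 in the Tead4 libraries. It also rose in intronic reads, from 36.7 and 38.7 to 765.1 and 750.6 (limma, log2 fold change 4.29 ± 0.16 SE, adjusted p = 4.33e-05). The exonic rise was 2.90 log2 units above the intronic one, which is the greatest such difference among the genes with both measures. The intronic values show that reads outside the annotated exons increased too. Whether these came from the plasmid or from the chromosomal gene was not tested.

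In exonic reads the 2-fold mark was passed by 136 genes upward (1.39%) and 182 downward (1.86%). By limma on log2(normalised reads + 1), with Benjamini-Hochberg adjustment over all 9796 genes at 0.05, 8 rose (0.0817%) and 6 fell (0.0612%). Before adjustment 1554 genes were under 0.05, and 86.4% of genes differed by less than 0.5 log2 units. In 25.2% of genes both Tead4 libraries lay above both vector libraries, and in 24% both lay below, so groups that do not overlap are common here. These counts depend on single libraries: limma called 2367 genes without vector library 1 and 1159 without vector library 2, with all 14 among them, but 5 without Tead4 library 1 (4 of the 14) and 30 without Tead4 library 2 (8 of the 14). With a term for the shared library order, a pattern read from the data and not from the labels, limma called 427 risen and 430 fallen. By size, 320 genes were higher without vector library 1 and 282 lower without Tead4 library 2. Tead4, Chrdl1, Hhip and Sncaip passed in each of 6 further settings (another pseudocount, scaling to library totals and each library left out in turn).

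Beside Tead4, the genes that rose in exonic reads were Crabp1, Dock8, Igf2bp2, Gpr126, Aqp1, Fbn1 and Lgals3. Crabp1, which binds retinoic acid in the cytoplasm, was at 38.0 and 18.6 in vector and 1205 and 780.7 in Tead4 libraries, rising by 5.13 ± 0.38 log2 units (limma, adjusted p = 0.033). Dock8, an activator of the GTPase Cdc42, went from 39.7 and 26.7 to 513.5 and 299.1 (3.55 ± 0.34, limma adjusted p = 0.0397). In both genes the lower Tead4 library lay far above the higher vector library. Both genes were under the minimum in the vector libraries, so they entered through the Tead4 group. Igf2bp2, an RNA-binding protein that controls messenger RNA stability, went from 79.4 and 51.2 to 551.2 and 410.1 (2.88 ± 0.27). Gpr126, an adhesion G-protein-coupled receptor, went from 77.7 and 65.1 to 299.8 and 300.2 (2.06 ± 0.19). The water channel Aqp1 went from 376.4 and 325.6 to 1120 and 1289 (1.78 ± 0.15). These levels are apart in every library, with the Tead4 pair closer together for Gpr126 than for Igf2bp2. Fibrillin 1 (Fbn1), the core protein of microfibrils, was at 1495 and 1758 in vector and 4536 and 4349 in Tead4 libraries (1.45 ± 0.14). Galectin 3 (Lgals3), a galactoside-binding lectin, was at 1028 and 1120 against 2778 and 2715 (1.36 ± 0.13). The limma adjusted p of these 5 was 0.0395 for Aqp1 and 0.0397 for the others.

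**Figure D1:**
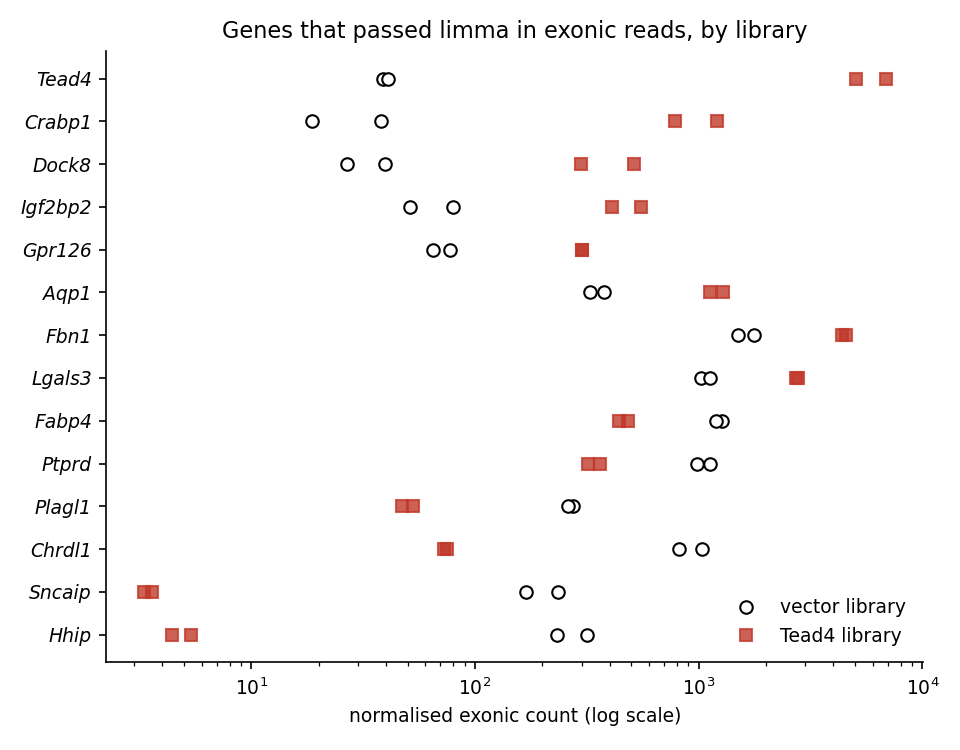
Normalised exonic reads on a log axis of the 14 genes that passed limma, 1 row per gene; open circles are the 2 vector libraries and squares the 2 Tead4 libraries. In every row the pairs lie apart, from Tead4 (38.9 and 40.7 against 6866 and 5050) to Hhip (315.9 and 232.6 against 5.39 and 4.40).

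The genes that fell were Hhip, Sncaip, Chrdl1, Plagl1, Ptprd and Fabp4. Hhip, a membrane protein that binds and restrains Hedgehog ligands, was at 315.9 and 232.6 in vector and 5.39 and 4.40 in Tead4 libraries (-5.53 ± 0.37, limma adjusted p = 0.0234). Sncaip, which encodes the synuclein-binding protein synphilin 1, went from 233.9 and 168.6 to 3.59 and 3.30 (-5.49 ± 0.43, limma adjusted p = 0.0335). These low levels rest on 6 and 4 reads for Hhip and on 4 and 3 reads for Sncaip. Both genes reached the minimum only through the vector libraries, so a fall was a condition of their entry. Chrdl1, a secreted antagonist of bone morphogenetic proteins (BMPs), went from 814.9 and 1034 to 72.7 and 74.8 (-3.62 ± 0.18, limma adjusted p = 0.00561). The imprinted zinc-finger gene Plagl1 was at 272.8 and 259.3 against 52.96 and 47.3 (-2.39 ± 0.20, limma adjusted p = 0.0395). The receptor phosphatase Ptprd was at 984.9 and 1121 against 320.5 and 362.8 (-1.62 ± 0.15). Fabp4, the fatty-acid carrier typical of fat cells, was at 1272 and 1193 against 441.7 and 480.5 (-1.42 ± 0.13). The limma adjusted p of both was 0.0397, and in all 6 genes each Tead4 library was below each vector library.

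Some larger exonic differences missed the adjusted threshold, with wider standard errors. Igfbp4, which binds insulin-like growth factors, was at 1953 and 604.7 in vector and 18.9 and 42.9 in Tead4 libraries (-5.20 ± 0.62, limma adjusted p = 0.0669). Tnn, the matrix protein tenascin N, was at 265.0 and 262.8 against 3.59 and 13.2 (-5.04 ± 0.57, limma adjusted p = 0.0648). Hmga2, a chromatin architectural protein of growing and embryonic cells, was at 366.9 and 404.7 against 2165 and 1217 (2.07 ± 0.28, limma adjusted p = 0.0792). None of these 3 overlapped between groups. Igfbp4 and Tnn reached the minimum only through the vector libraries, so a fall was a condition of their entry. Pdpn, a surface glycoprotein, was at 9.50 and 12.8 against 116.7 and 79.2, and Fgf12, an intracellular fibroblast growth factor homolog, was at 14.7 and 2.33 against 106.8 and 81.4. Neither pair overlapped, and limma gave adjusted p-values of 0.0912 for Pdpn and 0.15 for Fgf12. Pdpn and Fgf12 reached the minimum only through the Tead4 libraries, so a rise was a condition of their entry.

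TEAD factors recognise the letters GGAATG, which read CATTCC from the other strand. They were searched on both strands in RefSeq promoters of the mouse build GRCm38.p6, from 250 bases before to 50 after the start. The files are on mm9, so genes were matched by name, and the coordinates are those of GRCm38.p6. The 250 bases before the start are shown for Crabp1 and Fgf12, higher by at least 2-fold, for Tnn and Insc, lower by at least 2-fold, and for 2 textbook TEAD-YAP targets that differed little. Capitals mark the TEAD letters, and each sequence runs 5′ to 3′ along the gene.
Crabp1, chr9:54764498-54764747, plus strand: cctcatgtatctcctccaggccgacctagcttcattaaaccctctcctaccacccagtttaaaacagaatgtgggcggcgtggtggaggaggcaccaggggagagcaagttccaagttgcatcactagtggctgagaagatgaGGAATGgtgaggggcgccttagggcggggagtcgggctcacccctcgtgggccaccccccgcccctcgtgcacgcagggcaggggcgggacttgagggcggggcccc
Fgf12, chr16:28446076-28446325, minus strand: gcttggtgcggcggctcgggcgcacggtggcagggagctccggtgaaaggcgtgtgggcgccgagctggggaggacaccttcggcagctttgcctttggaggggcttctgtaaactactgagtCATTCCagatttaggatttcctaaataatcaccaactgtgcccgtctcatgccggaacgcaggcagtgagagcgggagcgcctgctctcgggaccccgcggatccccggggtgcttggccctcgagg
Tnn, chr1:160153576-160153825, minus strand: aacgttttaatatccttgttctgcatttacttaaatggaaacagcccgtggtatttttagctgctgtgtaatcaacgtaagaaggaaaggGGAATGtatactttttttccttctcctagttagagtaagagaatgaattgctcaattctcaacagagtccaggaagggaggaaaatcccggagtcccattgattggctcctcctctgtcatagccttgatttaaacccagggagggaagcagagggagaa
Insc, chr7:114745516-114745765, plus strand: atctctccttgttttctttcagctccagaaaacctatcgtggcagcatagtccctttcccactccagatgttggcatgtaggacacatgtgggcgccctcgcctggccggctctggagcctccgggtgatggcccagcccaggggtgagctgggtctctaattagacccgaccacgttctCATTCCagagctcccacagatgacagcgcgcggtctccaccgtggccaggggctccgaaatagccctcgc
Ankrd1, chr19:36119845-36120094, minus strand: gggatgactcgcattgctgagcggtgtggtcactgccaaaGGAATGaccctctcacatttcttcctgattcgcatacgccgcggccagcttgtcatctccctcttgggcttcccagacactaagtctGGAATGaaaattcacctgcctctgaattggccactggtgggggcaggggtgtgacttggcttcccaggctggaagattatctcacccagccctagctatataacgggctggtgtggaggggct
Cyr61 (Ccn1), chr3:145649986-145650235, minus strand: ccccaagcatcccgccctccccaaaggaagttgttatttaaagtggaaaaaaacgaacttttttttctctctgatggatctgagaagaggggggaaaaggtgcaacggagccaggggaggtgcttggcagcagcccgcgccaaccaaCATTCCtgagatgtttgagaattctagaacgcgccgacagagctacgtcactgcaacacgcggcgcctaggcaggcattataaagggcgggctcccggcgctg
The first base of the letters lies at -107 in Crabp1, -127 in Fgf12, -160 in Tnn and -70 in Insc, against -210 and -123 in Ankrd1 and -103 in Cyr61. Every printed promoter holds the letters, so these are examples of matches and do not show how often matches occur. Such examples exist among genes that were higher, lower and nearly level. Insc, an adaptor of oriented cell division, was at 382.4 and 253.5 in vector and 16.2 and 47.3 in Tead4 libraries. Insc and Tnn were under the minimum in the Tead4 libraries, so they entered through the vector group. Ankrd1 was at 4314 and 4376 against 4867 and 3354 and Cyr61 at 6398 and 5780 against 6241 and 5232, with overlap in both genes.

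Over all genes, names matched for 7954 of the 9796, giving promoters for 7935 genes. The TEAD letters were present in 1096 of these (13.8%), in 18 of 99 genes at least 2-fold higher (18.2%) and in 22 of 132 at least 2-fold lower (16.7%). They occurred in 9 of 19 textbook TEAD-YAP target genes (47.4%) and in 14.7% of all 32851 promoters of the table. The AP-1 letters TGANTCA, which read the same on both strands and can share 2 letters with the TEAD motif, were present in 442 of 7935 genes (5.57%). Among genes at least 2-fold higher they were in 16 of 99 (16.2%), and among those at least 2-fold lower in 8 of 132 (6.06%). Of all promoters 7.81% held them. In intronic reads the TEAD letters were in 13 of 62 genes at least 2-fold higher (21%) and 20 of 88 lower (22.7%), against 13.8% of 6843 genes. The 2-fold higher genes there held the AP-1 letters in 11 of 62 (17.7%) and the lower ones in 9 of 88 (10.2%), against 5.67%. A match is a stretch of letters in this window and not a measured binding site.

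Intronic reads come largely from unspliced RNA. At least 2-fold differences were found for 86 genes upward (1%) and 122 downward (1.42%), and limma called 65 risen (0.757%) and 73 fallen (0.851%), of which 113 also differed at least 2-fold. Limma thus called 138 genes here against 14 in exonic reads, while by size 208 passed against 318, and 148 against 205 passed in the authors' deposited table. Before adjustment 1327 genes were under 0.05. The Tead4 libraries lay above both vector libraries in 24.3% of genes and below both in 23.9%. Limma called 872 genes without vector library 1 (131 of the 138), 326 without vector library 2 (133), 49 without Tead4 library 1 (45) and 178 without Tead4 library 2 (101). By size, 178 genes were higher without vector library 1 and 199 lower without Tead4 library 2.

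Intronic reads rose for Crabp1 (2.68 and 3.42 in vector, 156.4 and 87.3 in Tead4 libraries; 4.87 ± 0.50, limma adjusted p = 0.00894). Klf12, a zinc-finger repressor, rose from 8.94 and 6.83 to 102.6 and 113.4 (3.63 ± 0.37, limma adjusted p = 0.00894). Fgf12 was at 38.5 and 46.7 against 599.2 and 340.1 (3.38 ± 0.27, limma adjusted p = 0.00293). Lphn3, a latrophilin adhesion receptor, was at 152.9 and 101.3 against 745.4 and 802.7 and rose by 2.63 ± 0.21. Hmga2 rose by 2.27 ± 0.29, from 398.0 and 357.5 to 2583 and 1293 (limma adjusted p = 0.0138). All 5 were apart between groups, and Fgf12 and Hmga2 passed here but not in exonic reads, a difference between read classes that was not tested. Crabp1, Klf12 and Fgf12 were under the minimum in the vector libraries, so they entered through the Tead4 group.

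Among the intronic falls, Slit3, a secreted guidance ligand of Robo receptors, was at 393.5 and 233.4 in vector and 8.55 and 10.2 in Tead4 libraries (-4.88 ± 0.32, limma adjusted p = 0.000904). Sncaip fell from 443.6 and 349.5 to 8.55 and 13.6 (-5.06 ± 0.29) and Chrdl1 from 738.8 and 921.0 to 73.5 and 74.8 (-3.46 ± 0.17). Igfbp4 fell from 144.9 and 55.8 to 1.71 and 2.27 (-4.94 ± 0.65, limma adjusted p = 0.0162). The integrin subunit Itga9 went from 525.9 and 216.3 to 8.55 and 21.5 (-4.53 ± 0.50) and the protease Adamts9 from 963.3 and 373.4 to 18.0 and 61.2 (-4.13 ± 0.58). In each of these genes the lower vector library was still several times the higher Tead4 library. Each was also below vector with Pbx3 and with Sox9, by -4.131 and -2.851 for Slit3, -3.379 and -2.545 for Igfbp4 and -2.125 and -1.530 for Adamts9. Slit3 and Adamts9 did not differ past the threshold from the mean of Pbx3 and Sox9 cells (limma adjusted p = 0.0603 and 0.129). Sncaip, Chrdl1 and Itga9 were below that mean (limma adjusted p = 0.000404, 0.00227 and 0.0135), and Igfbp4 was under the minimum there. In Tead4 cells the means of Slit3, Sncaip, Igfbp4, Itga9 and Adamts9 were under 50, so these genes entered through the vector group.

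**Figure D2:**
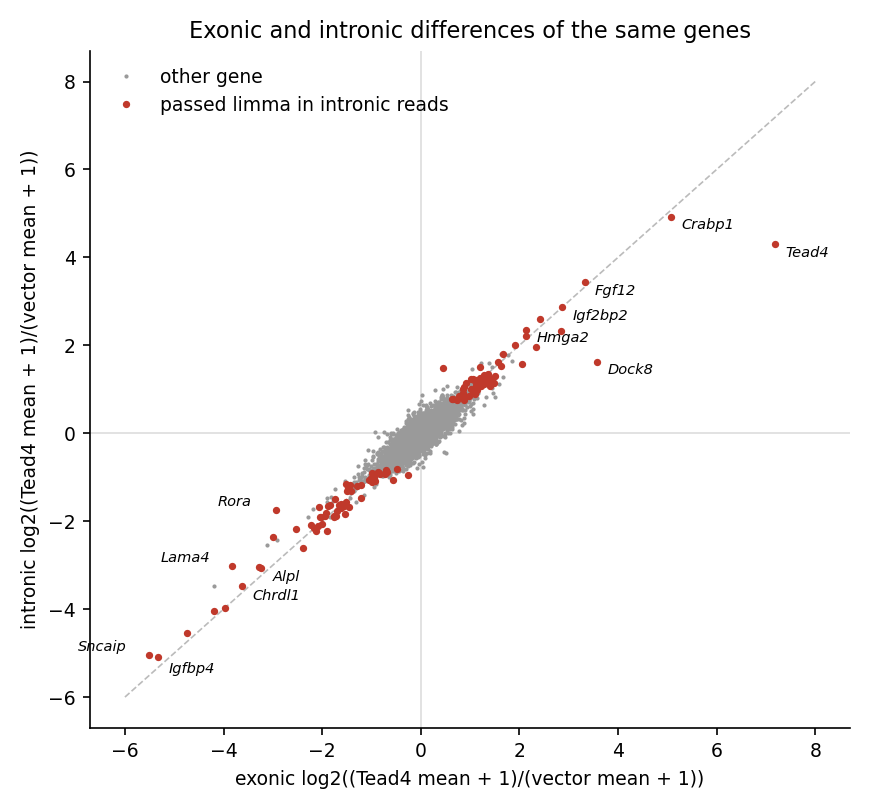
Each of 7984 genes measured in both classes of reads, with the exonic log2 difference of Tead4 and vector on the x axis and the intronic one on the y axis; red points passed limma in intronic reads and the dashed line marks equal differences. Most points follow the line (r = 0.908), while Tead4 (7.19 and 4.29), Dock8 (3.57 and 1.63) and Rora (-2.94 and -1.74) lie off it.

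Over the 7984 genes with both measures, exonic and intronic differences correlated at r = 0.908 (rho = 0.836), across genes counted in the same libraries. Of 87 genes at least 2-fold higher in exonic reads, 66 were so in intronic reads, which is 75.9% of the exonic and 88.0% of the intronic list of 75. Of 106 lower in exonic reads 83 were lower in intronic reads, 78.3% of the exonic and 90.2% of the intronic list of 92. The exonic difference exceeded the intronic one by at least 1 log2 unit for Tead4 and Dock8 and fell short by that much for Rora and 1600021P15Rik. Dock8 intronic reads were at 278.2 and 220.9 in vector and 890.7 and 655.3 in Tead4 libraries, so its exonic-to-intronic log2 ratio moved from -2.78 and -3.00 to -0.79 and -1.13. For Rora, a nuclear receptor, this ratio moved from -2.47 and -3.04 to -4.06 and -3.75. In these genes the ratios did not overlap between groups, as was so for 18.2% of genes upward and 16.1% downward, and over all genes the median excess was 0.01. Leaving out a library gave 3 to 9 such genes with an exonic excess and 1 to 7 with an intronic one.

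The other TEAD factors were measured beside Tead4. Tead3 was at 106.2 and 80.2 exonic reads in vector and 254.9 and 214.4 in Tead4 libraries (1.33 ± 0.22, limma adjusted p = 0.108), without overlap. Its intronic reads were at 125.2 and 104.7 against 213.7 and 195.0 (0.83 ± 0.18, limma adjusted p = 0.0756). Exonic differences of Tead3 from vector were 0.521 with Pbx3 and 1.291 with Sox9. Tead4 cells did not differ past the threshold from the mean of Pbx3 and Sox9 cells in Tead3 (limma adjusted p = 0.2585 exonic and 0.2495 intronic). Tead1 was at 715.6 and 1127 against 1270 and 933.5 and Tead2 at 603.4 and 465.1 against 559.3 and 763.1. Tead1 and Tead2 thus overlapped between groups. The cofactor Yap1 was at 1826 and 1494 against 1593 and 1408 (-0.14 ± 0.16) and Wwtr1, which encodes TAZ, at 1636 and 1759 against 1935 and 1882 (0.17 ± 0.12). Vgll3 was at 1398 and 2590 against 1543 and 1160, and Vgll4 at 232.2 and 188.4 against 135.6 and 152.8. None of these 4 cofactors passed limma, and Vgll1 and Vgll2 were under the minimum.

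Of 30 Hippo kinases and regulators listed, 27 were measured in exonic reads, and none passed limma or differed 2-fold in either direction. Their median was 0.03 log2 units and their range ran from -0.53 (Amot) to 0.55 (Fat4), against a median of 0.00 over all genes. Amot, a YAP-binding scaffold, was at 1071 and 1044 in vector and 658.9 and 807.1 in Tead4 libraries. The atypical cadherin Fat4 was at 1008 and 741.9 against 991.1 and 1572, with overlap.

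Of 29 measured textbook TEAD-YAP targets, none passed limma in exonic reads (median -0.12). There 2 were at least 2-fold higher (1.39% of all genes) and 4 at least 2-fold lower (1.86%). In intronic reads 25 were measured, 1 rose (0.757% of all genes) and 4 fell (0.851%), with a median of -0.19. Ctgf, the connective tissue growth factor, fell in intronic reads from 383.7 and 571.5 to 228.2 and 188.2 (-1.17 ± 0.21, limma adjusted p = 0.0463). In Ctgf each Tead4 library was below each vector library. The vasoconstrictor peptide gene Edn1 fell from 304.1 and 376.8 to 133.4 and 110.0 (-1.48 ± 0.18). Ccdc80, a secreted matrix-associated protein, fell from 369.4 and 399.6 to 114.5 and 195.0 (-1.36 ± 0.24). Dock5, an activator of Rac, rose from 337.2 and 348.4 to 725.7 and 578.2 (0.92 ± 0.16, limma adjusted p = 0.0396). With Pbx3 and Sox9 the intronic differences from vector were 0.283 and -2.221 for Ctgf and 0.183 and -2.116 for Edn1. Tead4 cells did not differ past the threshold from the mean of Pbx3 and Sox9 cells in Ctgf or Edn1 (limma adjusted p = 0.9126 and 0.6047). Ccdc80 was below that mean and Dock5 above it (limma adjusted p = 0.02685 and 0.03218). Ccnd1, which encodes cyclin D1, was at 1630 and 1497 exonic reads in vector and 3951 and 2998 in Tead4 libraries (a difference of 1.15 log2 units by size, limma adjusted p = 0.0963). The list therefore held members on both sides, and the classical targets Ankrd1 (-0.10 ± 0.20) and Cyr61 (-0.09 ± 0.15) overlapped between groups.

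**Figure D3:**
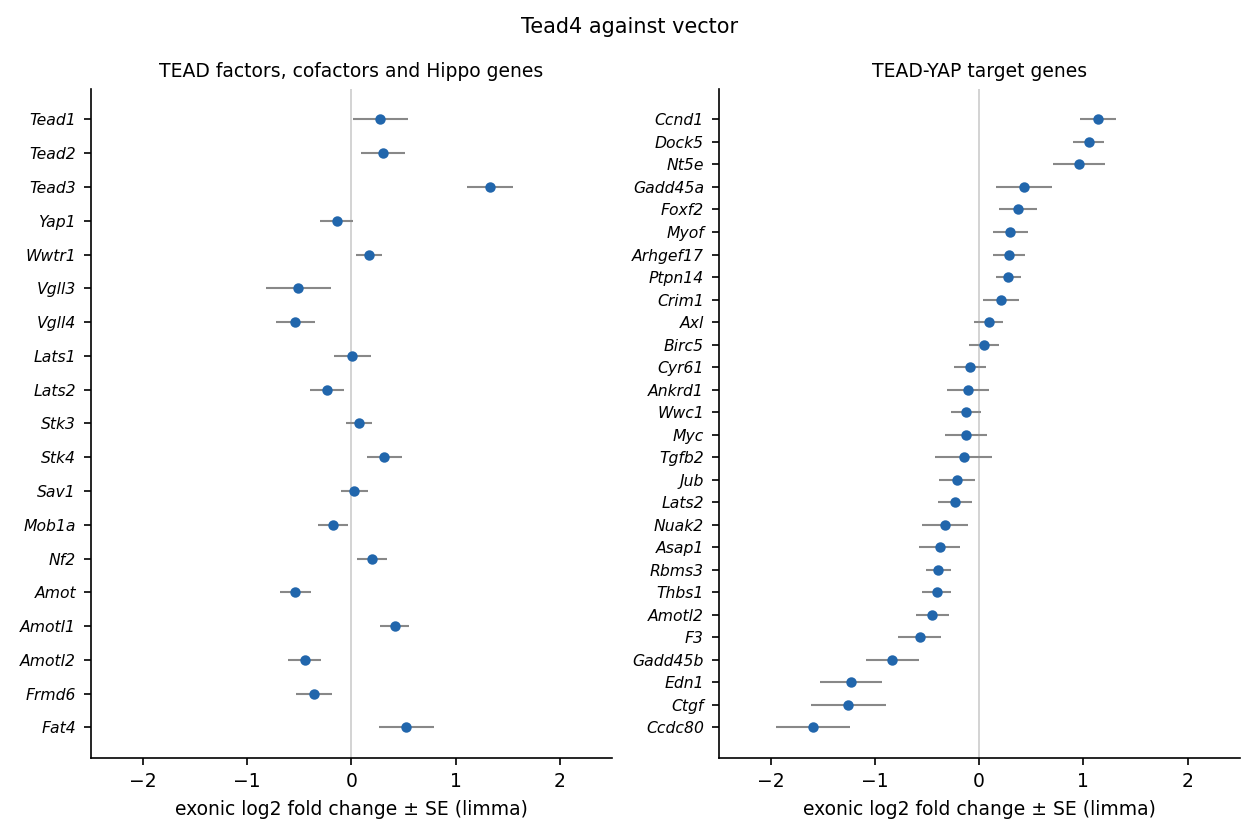
Exonic log2 fold change of Tead4 against vector (x axis, limma estimate with bars of 1 SE) for TEAD factors, cofactors and a choice of Hippo genes (left) and the TEAD-YAP targets but 1 (right). Tead4 itself is left out for scale; Tead3 (1.33) stands apart on the left, and the targets run from Ccnd1 to Ccdc80 (-1.59).

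Some bone-forming genes were lower. Of 11 osteoblast markers measured in exonic reads, 3 were at least 2-fold lower (1.86% of all genes were) and none higher, and limma called none. In intronic reads the same 3, Pth1r, Alpl and Sp7, fell among 10 measured, where 0.851% of all genes fell, and none rose. Pth1r, the parathyroid hormone receptor, was at 333.2 and 208.1 exonic reads in vector and 6.28 and 26.4 in Tead4 libraries, and fell in intronic reads from 162.8 and 113.8 to 4.27 and 11.3 (-4.09 ± 0.48, limma adjusted p = 0.0135). Alpl, the alkaline phosphatase of mineralising cells, was at 6604 and 2215 exonic reads against 224.4 and 703.7, and fell by 3.17 ± 0.52 log2 units in intronic reads (limma adjusted p = 0.0327). Sp7, the osteoblast transcription factor osterix, was at 767.4 and 473.3 against 85.3 and 188.0 and fell by 2.17 ± 0.36 in intronic reads (limma adjusted p = 0.0334). Their vector and Tead4 libraries did not overlap, as in 24% of all exonic genes on the lower side, although vector library 1 was far above vector library 2 for Alpl. With Pbx3 the intronic differences from vector were -1.572 for Pth1r, -1.023 for Alpl and -1.296 for Sp7. With Sox9 they were -0.028, 0.202 and 0.543. Tead4 cells were below the mean of Pbx3 and Sox9 cells in each gene (limma adjusted p = 0.00365, 0.0273 and 0.032). Pth1r in both read classes and Sp7 in intronic reads were under the minimum in Tead4 cells, so they entered through the vector group. In such bulk RNA, fewer cells of a type and less RNA per cell cannot be told apart.

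The measured fat-cell genes lay on the lower side. All 4 adipocyte markers measured in exonic reads had both Tead4 libraries below both vector libraries, 2 by at least 2-fold, and Fabp4 fell, where 24% of all genes lay below without overlap and 1.86% were at least 2-fold lower. Pparg, the master regulator of fat-cell differentiation, was at 980.6 and 1109 against 485.7 and 524.5 (-1.05 ± 0.14, limma adjusted p = 0.0792). In intronic reads Pparg fell from 1810 and 2264 to 837.7 and 1117 (-1.07 ± 0.19, limma adjusted p = 0.0436), and Fabp4 from 222.7 and 146.9 to 70.1 and 77.1 (-1.29 ± 0.24, limma adjusted p = 0.0463). Lpl, lipoprotein lipase, was at 3475 and 2210 exonic reads against 1175 and 1800.

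Of 14 basement membrane genes measured in exonic reads, 12 had a positive difference (median 0.43), as had 4902 of all 9796 genes. There 4 were at least 2-fold higher (1.39% of all genes) and 1 at least 2-fold lower (1.86%), with no limma call. In intronic reads 11 were measured. Col4a1, Col4a2 and Col4a5 rose (0.757% of all genes) while Lama4 fell (0.851%). Col4a1, a chain of type IV collagen, was at 745.0 and 645.3 exonic reads in vector and 1640 and 1735 in Tead4 libraries, and rose by 1.33 ± 0.18 in intronic reads (limma adjusted p = 0.0168). Its partner Col4a2 was at 383.3 and 311.6 against 825.9 and 851.0 and rose by 1.25 ± 0.16 in intronic reads (limma adjusted p = 0.0136). Col4a5 rose by 0.92 ± 0.15 in intronic reads (limma adjusted p = 0.0295). With Sox9 the intronic difference of Col4a5 from vector was 1.667. Tead4 cells did not differ past the threshold from the mean of Pbx3 and Sox9 cells in Col4a5 (limma adjusted p = 0.974). Col4a1 and Col4a2 were above that mean (limma adjusted p = 0.0298 for both). Lama4, the laminin alpha 4 chain, went the other way, with 182.1 and 241.9 exonic reads against 8.08 and 19.8, and it fell by 3.09 ± 0.41 in intronic reads (limma adjusted p = 0.0162). In both read classes Lama4 was under the minimum in Tead4 cells, so it entered through the vector group.

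Of 30 fibrillar collagen and matrix genes, 6 were at least 2-fold lower in exonic reads (1.86% of all genes) and Fbn1 was at least 2-fold higher (1.39%). Tenascin C (Tnc), an adhesion-modulating glycoprotein, was at 19146 and 11501 against 3773 and 5656 and fell in intronic reads by 1.75 ± 0.26 (limma adjusted p = 0.0226). Lox, the collagen and elastin cross-linking oxidase, was at 17625 and 22967 against 7805 and 9668 and fell in intronic reads by 1.20 ± 0.20 (limma adjusted p = 0.0361). Periostin (Postn) was at 3002 and 3844 exonic reads against 398.6 and 1004 (-2.42 ± 0.42, limma adjusted p = 0.112). Each of the 3 was lower in both Tead4 libraries. Among 16 integrin and adhesion genes in intronic reads, Itga9 and Itga11 fell (0.851% of all genes) and Itgb8 rose (0.757%). Itga11, a collagen receptor subunit, went from 349.7 and 281.2 to 76.9 and 119.0 (-1.70 ± 0.24, limma adjusted p = 0.0188). Itgb8, which pairs with integrin alpha V, went from 23.3 and 11.4 to 88.9 and 81.6 (2.31 ± 0.40, limma adjusted p = 0.0363). Itgb8 reached the minimum only through the Tead4 libraries. Alcam, an adhesion molecule among the stromal markers, rose in intronic reads from 346.1 and 207.2 to 1273 and 664.4 (1.78 ± 0.33, limma adjusted p = 0.0478). With Pbx3 and Sox9 the intronic differences from vector were 0.793 and 1.041 for Alcam and 1.298 and 1.693 for Itgb8. For Tnc they were -0.580 and -0.568. Tead4 cells did not differ past the threshold from the mean of Pbx3 and Sox9 cells in Alcam or Tnc (limma adjusted p = 0.1945 and 0.1581). Lox and Itga11 were below that mean (limma adjusted p = 0.0411 and 0.01558), and Itgb8 was under the minimum there.

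Secreted modulators of growth signals differed individually. Of 16 Wnt pathway genes in exonic reads 3 were at least 2-fold higher (1.39% of all genes) and 4 lower (1.86%), without a limma call. In intronic reads Sfrp4 and Lgr6 rose among 12, where 0.757% of all genes rose. Lgr6 is named after its values were seen. Sfrp4, a secreted Wnt inhibitor, was at 20.7 and 20.9 exonic reads against 188.5 and 123.1 (2.81 ± 0.33, limma adjusted p = 0.0658) and rose in intronic reads by 2.36 ± 0.35 (limma adjusted p = 0.0242). In both read classes Sfrp4 reached the minimum only through the Tead4 libraries, so a rise was a condition of its entry. Its relative Sfrp1 was at 2042 and 874.4 exonic reads against 142.7 and 240.8 (-2.84 ± 0.44, limma adjusted p = 0.102). The 2 inhibitors thus differed in opposite directions, each without overlap. Of 26 TGF-beta and BMP pathway genes, 4 were at least 2-fold lower in exonic reads (1.86% of all genes) and none higher (1.39%). Chrdl1 fell, as did 0.0612% of all genes. Bmp4, a BMP ligand, was at 3900 and 3123 against 1612 and 1799 (-1.04 ± 0.16, limma adjusted p = 0.101).

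Cell cycle genes stayed close to level: none of 34 passed limma or differed 2-fold in exonic reads, with a median of 0.00. Of 14 D-type cyclin and Cdk inhibitor genes, Ccnd1 and Ccnd2 were at least 2-fold higher (1.39% of all genes) and none lower, without a limma call. Ccnd2, which encodes cyclin D2, was at 918.5 and 832.6 in vector and 2790 and 2020 in Tead4 libraries (1.44 ± 0.19, limma adjusted p = 0.0782). Ccnd3, which encodes cyclin D3, was at 524.8 and 398.8 against 632.0 and 653.1, a difference of 0.48 log2 units. Of 43 ribosomal protein genes none was 2-fold apart. Cholesterol synthesis genes had a median of 0.55 over 24, with 3 at least 2-fold higher (1.39% of all genes) and none called by limma. But they also set the vector libraries apart: Fdps, farnesyl diphosphate synthase, was at 1361 and 290.7 in vector and 1163 and 1801 in Tead4 libraries. The part of that library difference in the result was not tested.

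Pbx3 and Sox9 cells, which were transfected too, give further values of the same genes. The comparison of Tead4 with the mean of Pbx3 and Sox9 cells uses the same Tead4 libraries as the comparison with vector, so no overlap is drawn between them. By limma over 8 libraries, 95 of 9778 genes were above that mean (0.972%) and 177 below (1.81%) in exonic reads, and 109 of 8484 above (1.28%) and 197 below (2.32%) in intronic reads. Without Tead4 library 1 or 2 these 4 counts were between 2 and 93. Crabp1, on a scale common to all 8 libraries, was at 1108 and 722.5 in Tead4 libraries, at 35.2 and 17.2 in vector, 13.8 and 39.5 in Pbx3 and 1.17 and 2.85 in Sox9 libraries. It was above the mean of Pbx3 and Sox9 cells by 6.74 ± 0.51 log2 units (limma adjusted p = 0.00192). Lgals3 was at 2555 and 2512 with Tead4, against 951.7 and 1033 with vector, 957.1 and 1161 with Pbx3 and 1051 and 1071 with Sox9, above that mean by 1.26 ± 0.11 (limma adjusted p = 0.00399). Aqp1 (1.76 ± 0.24, limma adjusted p = 0.0158) and Hmga2 (2.14 ± 0.24, limma adjusted p = 0.00949) were also above the mean. For these 4 genes the Tead4 libraries were the highest pair of the 8.

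Other genes stood between or beside the factors. Hhip was at 292.5 and 214.6 with vector, 36.1 and 15.03 with Pbx3, 46.8 and 22.8 with Sox9 and 4.95 and 4.07 with Tead4, so it was lower than vector with every factor and lowest with Tead4 (-2.38 ± 0.45 against the mean of Pbx3 and Sox9, limma adjusted p = 0.0396). Gpr126 was at 275.7 and 277.8 in Tead4 but at 435.2 and 406.8 in Sox9 libraries, with 71.3 and 69.5 in Pbx3 (limma adjusted p = 0.0545). Igf2bp2 was at 506.8 and 379.6 with Tead4, 329.9 and 337.1 with Sox9 and 97.1 and 131.5 with Pbx3. Fabp4 was at 304.1 and 389.9 in Pbx3 and 406.1 and 444.7 in Tead4, against 1797 and 1808 in Sox9 libraries. Low Fabp4 was therefore seen with Pbx3 too, and high Gpr126 and Igf2bp2 with Sox9. Dock8 was at 472.1 and 276.8 with Tead4, 125.2 and 103.8 with Sox9, 32.65 and 42.27 with Pbx3 and 36.76 and 24.68 with vector. It was thus higher than vector with Sox9 too, and above the mean of Pbx3 and Sox9 with Tead4 (2.45 ± 0.28, limma adjusted p = 0.0101). By size, exonic differences from vector with Pbx3 and Sox9 were -2.243 and -1.133 for Sncaip and -1.931 and -0.730 for Chrdl1. For Igfbp4 they were -3.453 and -2.788. Tead4 cells were below the mean of Pbx3 and Sox9 cells for Sncaip and Chrdl1 (limma adjusted p = 0.0111 and 0.0081) but not past the threshold for Igfbp4 (limma adjusted p = 0.106). Lama4 was at 7.43 and 18.3 with Tead4, against 168.6 and 223.2 with vector, 222.5 and 182.3 with Pbx3 and 1495 and 872.0 with Sox9, below the mean of the other factors (-5.24 ± 0.36 log2 units, limma adjusted p = 0.00111). Fbn1 did not differ from that mean past the threshold (0.67 ± 0.24, limma adjusted p = 0.185).

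**Figure D4:**
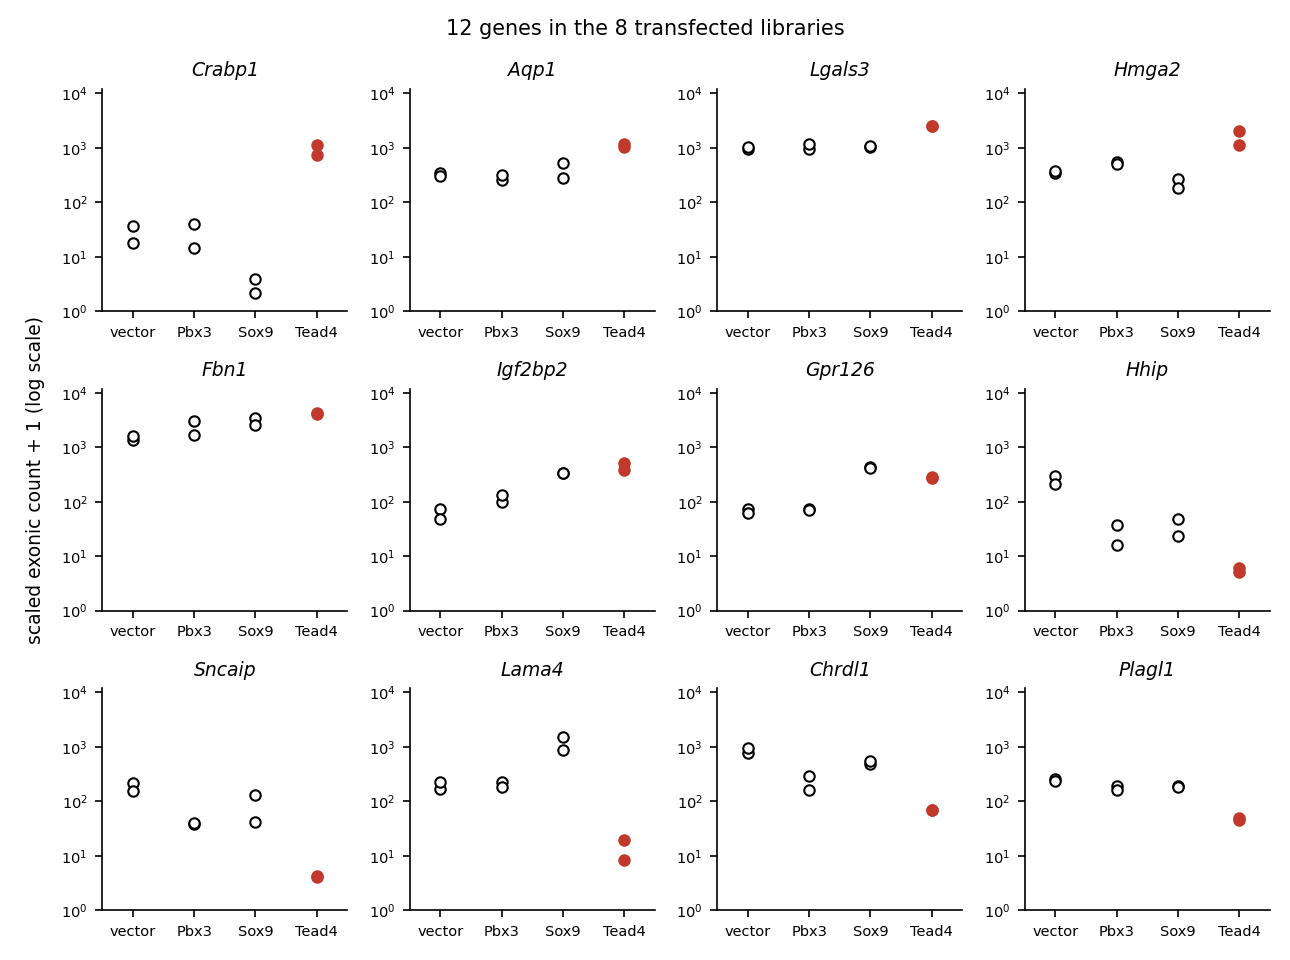
Exonic reads of 12 genes on a scale common to the 8 transfected libraries, plus 1 on a log axis, with 2 points per group and Tead4 in red. Crabp1, Aqp1, Lgals3 and Hmga2 are highest in both Tead4 libraries, Gpr126 is highest in Sox9 cells, and Lama4 is at 7.43 and 18.3 with Tead4 but at 1495 and 872.0 with Sox9.

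The untreated Dicer WT and Dicer KO cells share no library with the Tead4 comparison, and Dicer is the enzyme that cuts microRNA precursors. In Dicer KO cells 404 of 9773 genes were at least 2-fold higher (4.13%) and 538 lower (5.5%) in exonic reads, and 176 of 8560 (2.06%) and 388 (4.53%) in intronic reads. Tead4 itself was at 65.1 and 25.6 in Dicer WT and 237.5 and 164.2 in Dicer KO libraries. All 6 genes that fell with Tead4 were at least 2-fold lower in Dicer KO cells. Hhip was at 294.1 and 365.4 in Dicer WT and 2.75 and 3.10 in Dicer KO, Chrdl1 at 2184 and 2530 against 42.2 and 41.3, and Fabp4 at 4245 and 3612 against 169.6 and 161.1. Of the 8 that rose, 7 were measured there, and Tead4, Dock8, Igf2bp2, Gpr126 and Lgals3 were at least 2-fold higher. Igf2bp2 was at 42.4 and 141.5 in Dicer WT and 2839 and 2894 in Dicer KO. The exceptions were Aqp1, at 344.1 and 393.2 against 45.8 and 87.8, and Fbn1, at 8636 and 5998 against 9113 and 8620.

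Among genes at least 2-fold lower with Tead4 in exonic reads, 87 of 182 (47.8%) were at least 2-fold lower in Dicer KO, being 16.2% of all genes lower there, and 13 (7.14%) were higher. Of those at least 2-fold higher with Tead4, 120 were measured, 43 were higher in Dicer KO (35.8%, being 10.6% of all genes higher there) and 30 were lower (25%). In intronic reads 61 of 121 lower genes were lower in Dicer KO (50.4%) and 6 higher (4.96%), and of 72 higher genes 17 were higher (23.6%) and 12 lower (16.7%). Across all 9773 genes the 2 exonic differences correlated at r = 0.251 (rho = 0.177), a description over genes with no test. Pth1r and Sp7 shared the direction, with Pth1r at 559.1 and 964.7 in Dicer WT and 11 and 16.5 in Dicer KO and Sp7 at 965.4 and 2451 against 18.3 and 69.2. Lama4 was at 242.3 and 166.0 in Dicer WT and at 0 in both Dicer KO libraries. The D-type cyclin gene Ccnd2 was at 1466 and 1668 against 7553 and 7483, and Hmga2 at 204.6 and 90.2 against 1280 and 1859. Tead3 went the other way from the Tead4 cells, with 337.5 and 354.3 in Dicer WT and 64.2 and 103.3 in Dicer KO. Alpl overlapped, at 9806 and 24233 against 3657 and 15195. The Dicer WT background is common to both comparisons, and its part in these shares was not tested.

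**Figure D5:**
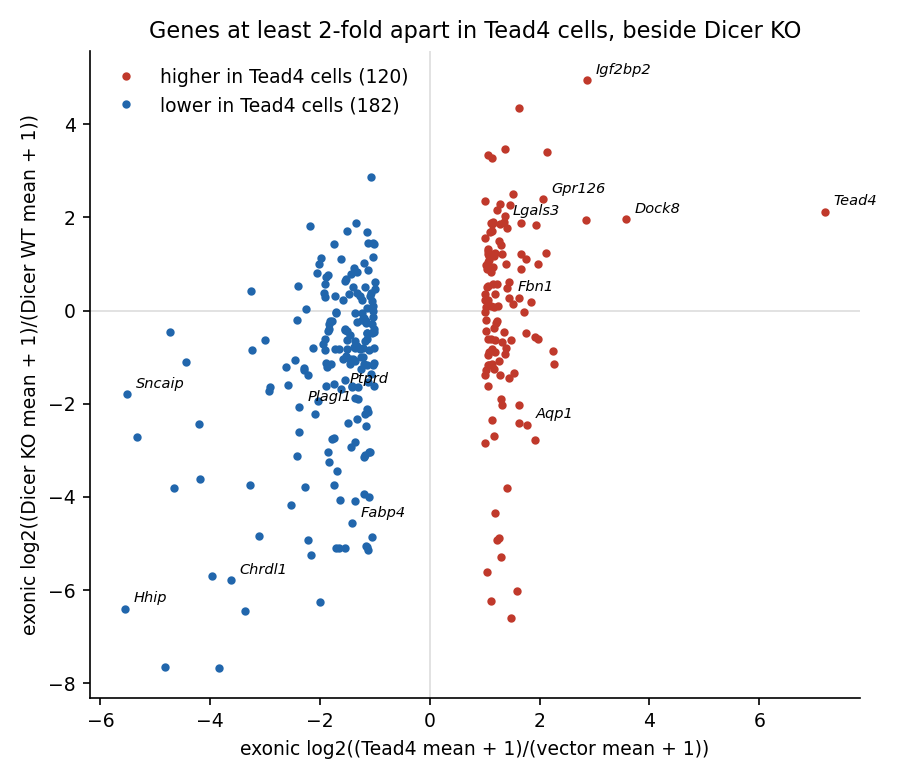
Genes at least 2-fold apart between Tead4 and vector cells and measured in Dicer WT and KO cells, with the exonic log2 difference of Tead4 and vector on the x axis and that of Dicer KO and WT on the y axis; red marks 120 genes higher and blue 182 lower in Tead4 cells. Hhip, Chrdl1 and Fabp4 lie low on both axes, Igf2bp2 high on both, and Aqp1 is high on the first and low on the second.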

How the data were processed

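Total RNA of 6 groups of mouse cells was measured, and vector and Tead4 cells are compared here. Per the submitters' processing notes, reads were aligned to mm9 with Bowtie2 and analysed with DESeq 1.10.1. The authors deposited, per gene and group, means of read counts divided by size factors (a depth-normalised signal, exonic and intronic apart), with a fold ratio, its log2 and p-values. As whole reads divided by 2 size factors give each mean, the reads of 2 libraries per group were recovered for 100% of genes (residual under 1e-11). The normalised values of these libraries, log2(value + 1), were tested with limma 3.58.1 (trend; R 4.3.3; Benjamini-Hochberg adjustment at 0.05), 2 against 2, since the files give no counts column; ± is the standard error. Genes needed a mean of 50. Scripts were tested on simulated data. Tead4 was also compared with the mean of Pbx3 and Sox9 cells over 8 libraries.

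Genes named are Tead4, measured members of the TEAD, cofactor, Hippo and target lists, genes that passed limma (above 30, the 15 largest each way), the 15 largest exonic and 8 largest intronic differences each way without overlap, the 5 largest exonic-to-intronic differences each way, and up to 5 of largest exonic change in each other list. The result of 1 TEAD-YAP target is not reported here. The comparison, its lists (38) and the printed promoters were chosen with earlier results of these data known, and the Dicer comparison and promoter search were added after seeing the data. Alternatives tried were a minimum of 200 or none, a pseudocount of 10, a 1.5-fold mark, scaling to library totals, all 8 libraries, the authors' own test and each library left out.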

Additional observations from a re-analysis of the deposited data

How the results depend on the processing

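Counts are given as higher and lower in Tead4 cells. For 2-fold differences (136 and 182 exonic, 86 and 122 intronic), a minimum of 200 gave 60 and 70 exonic and 31 and 37 intronic, no minimum 533 and 829, and 643 and 908, and a 1.5-fold mark 457 and 513, and 338 and 390. Leaving out a library gave 105 to 320 and 147 to 282 exonic, and 76 to 178 and 93 to 199 intronic. For exonic limma calls (8 and 6), no minimum gave 41 and 50, a minimum of 200 gave 3 lower, library totals 5 higher, all 8 libraries 35 and 42, and the authors' deposited test 103 and 102. Leaving out a library gave 1 to 1191 and 4 to 1176, the lone library of an arm being assumed to vary like the others. For intronic calls (65 and 73), a minimum of 200 gave 30 and 20, none 148 and 167, library totals 30 and 28, and leaving out a library 13 to 449 and 36 to 423. Exonic minus intronic differences (2 and 2) became 3 to 9 and 1 to 7 without a library, and the lower ones 0 at a minimum of 200 and 1 at a pseudocount of 10. Against Pbx3 and Sox9 cells, a minimum of 200 gave 36 and 65 exonic and 52 and 93 intronic, and leaving out a library 2 to 20 and 14 to 85, and 7 to 25 and 21 to 93. The labels carry no replicate numbers, but libraries deviate in shared directions; pairing them by that order, a hint from the data, gave 427 and 430 exonic and 673 and 716 intronic calls, and over 8 libraries, added after seeing the data, 495 and 576, and 375 and 483. No named gene that passed limma, or whose limma difference was at least 1 log2 unit, reversed direction in exonic reads. This covers a pseudocount of 10, library totals and each library left out. Reversals of smaller differences were not counted. The cause of the shifts in these counts was not tested. With 2 libraries per group, small differences are not detectable, and levels near 5 reads, as for Hhip and Sncaip in Tead4 cells, leave their fold changes loosely bounded.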

Other observations

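Single genes of further lists were apart in exonic reads without a limma call. Medians were 0.04 log2 units for 24 EGF and FGF family genes and 0.16 for 16 chemokine and inflammatory genes. For 23 glycolysis and hypoxia genes the median was 0.12. Some lists lay lower, with medians of -2.166 for 2 granzymes, -1.25 for 5 cartilage genes and -0.798 for 4 trophoblast genes. For 8 genes of Igf binding proteins and ligands it was -0.688. The 2 granzymes measured, Gzme and Gzmc, serine proteases of cytotoxic granules, were at 164.0 and 67.4 and at 220.1 and 62.8 in vector libraries and at 32.3 and 9.90 and at 48.5 and 24.2 in Tead4 libraries. Both granzymes were under the minimum in the Tead4 libraries, so they entered through the vector group. The receptors Fgfr2 (1081 and 643.0 against 317.8 and 352.9) and Fgfr3 (316.8 and 88.4 against 47.6 and 62.7) were lower in both Tead4 libraries. Among inflammatory genes Il1rn, the interleukin 1 receptor antagonist, was at 2361 and 608.1 against 103.2 and 238.6, while the chemokine Cxcl5 was at 101.0 and 87.2 against 290.0 and 213.3. Il1rl1, the interleukin 33 receptor, rose in intronic reads from 64.4 and 74.0 to 176.1 and 139.5 (1.17 ± 0.21, limma adjusted p = 0.0436). Bdnf, a neurotrophin, rose in intronic reads from 382.8 and 478.2 to 1105 and 865.1 (1.19 ± 0.18, limma adjusted p = 0.0264). The lactate transporter Slc16a3 was at 153.7 and 100 exonic reads against 539.5 and 568.5.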
